A study of Mus musculus with 18 samples.

Results

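Mouse embryonic stem cells that lacked both RNF2 and BAP1 were compared with the conditional BAP1 line that had not received the drug that deletes BAP1. The comparison used 6 of 18 libraries, 3 labelled dKO_D4_4OHT and 3 labelled cKO_D4, chosen by these labels alone, and covered every gene with enough counts, 16875 of 36528 listed. The double knockout cells (RNF2-BAP1 double knockout) had been given 100 nM 4-hydroxytamoxifen (4-OHT) for 4 days, which switches on Cre recombinase, while the untreated conditional line (labelled BAP1 knockout control, also collected at day 4) had not. A further group of 3 libraries, BAP1 wild type (WT_D4), served as another baseline, and the labels do not say whether it received the drug. All groups were cultured with emricasan, a caspase inhibitor that holds back apoptosis, so every value describes cells protected from that form of death. The sources used here do not say from which line or clone the double knockout was derived, which exons were removed, or which promoter drove Cre. Genotype, drug, Cre activity and line therefore cannot be told apart in the comparison with the untreated line, and the design text of the study writes dKO_D4 for the group that the samples call dKO_D4_4OHT.

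BAP1 is a nuclear deubiquitinase that, with an ASXL partner, removes ubiquitin from lysine 119 of histone H2A. RNF2 (RING1B) is the main ubiquitin ligase that places that mark, as the catalytic core of Polycomb repressive complex 1 (PRC1), and PRC1 together with PRC2 keeps developmental regulators such as the HOX genes silent in embryonic stem cells. The double knockout thus lacks both the principal writer and a principal eraser of the same histone mark, with the RNF2 paralogue RING1 still encoded. The comparison asks how far such cells stand from a conditional BAP1 line that did not receive the drug.

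RNA was polyadenylated and read as single 50-base reads. Libraries held 14231467, 13042515 and 23039407 counts in the double knockout, 22076250, 20791712 and 18416963 in the untreated line, and 18177207, 22252157 and 20855020 in wild type. Values are CPM, counts scaled to a common library size after TMM normalisation, and differences are log2 fold changes ± SE from edgeR's quasi-likelihood fit over all 18 libraries, positive where the double knockout was higher, and the threshold was 0.05 for p-values adjusted by Benjamini and Hochberg's method. "Rose" and "fell" are used of genes past that threshold, in the double knockout relative to the untreated line unless wild type is named. Nothing in the labels says that the 3 libraries of a group came from separate cultures, so p-values measure the spread between these libraries, which may be technical. In edgeR's fit over all 18 libraries that spread was small, with a common coefficient of variation of 4.47%. This value leaves out counting noise, and single genes can vary by more. Differences well under 1.5-fold passed the test. In bulk RNA, fewer cells of a type and less RNA per cell cannot be told apart.

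The transcripts of both targeted genes were still counted. Rnf2 (chr1:151469398-151500991, GRCm38) had 77.3, 75.6 and 70.6 CPM in the double knockout libraries, against 110.3, 114 and 111 CPM in the untreated-line libraries. The double knockout libraries lay below all 6 baseline libraries, and the fitted level of Rnf2 fell to 0.666 times that of the untreated line (-0.59 ± 0.059, edgeR adjusted p = 8.2e-11). Bap1 (chr14:31251352-31259930), whose protein product is the deubiquitinase, had 139, 161 and 158 CPM in the double knockout libraries, against 170.0, 167 and 169 CPM in the untreated-line libraries. These groups did not overlap either, but the difference was small (-0.14 ± 0.048, edgeR adjusted p = 0.014) and did not pass the threshold without double knockout replicate 1 (log2 fold change -0.0856, edgeR adjusted p = 0.18). Counts over whole genes cannot show that an exon was deleted, so neither value tests the genotype labels. Ring1, which encodes the paralogue of RNF2, had 19.3, 20.5 and 18.1 CPM in the double knockout libraries, against 18.9, 19 and 18.5 CPM in the untreated-line libraries. Those ranges overlapped, and the difference did not pass the test (0.029 ± 0.088, edgeR adjusted p = 0.83).

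Of 16875 genes tested, 6550 (38.8%) differed between the double knockout and the untreated line, 3264 higher (19.3%) and 3286 lower (19.5%). Counts of listed genes given below are to be read beside these shares. For counts against wild type the shares of all genes were 26.2% higher and 27.1% lower. For the untreated line against wild type they were 18.5% higher and 20.8% lower. Large changes in the double knockout relative to the untreated line were mostly upward. At 2-fold or more, 933 genes rose (5.53%) and 169 fell (1.0%), and at 4-fold or more 291 rose and 5 fell. Below 1.5-fold the balance was reversed, with 1747 genes higher and 2638 lower. Scaling by library totals alone moved the median of all genes by 0.049 on the log2 scale and gave 4063 higher and 2507 lower, so the near equality of the overall counts depends on the scaling. A low-count filter passes genes that are high in the double knockout alone, and among the 16208 genes that also passed it in the 12 libraries of the other 4 groups, 694 rose and 161 fell by 2-fold or more. With at least 50 counts required in 3 libraries, the 2-fold counts were 377 higher and 89 lower.

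**Figure D1:**
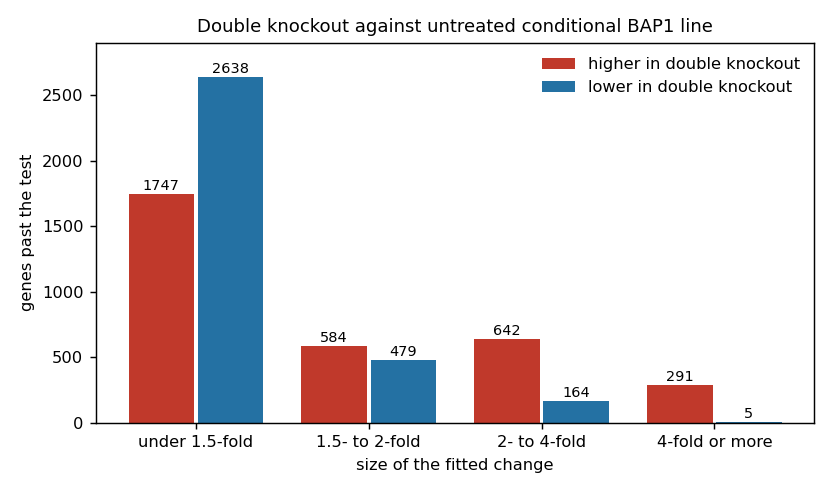
Genes past the test in the double knockout against the untreated conditional BAP1 line, by size of the fitted change (x axis, fold) and direction (y axis, number of genes). Higher and lower genes number 1747 and 2638 below 1.5-fold, and 291 and 5 at 4-fold or more.

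Markers of embryonic stem cells were the most abundant of the marker sets in all 9 libraries. The summed level of 8 stem cell markers, among them Pou5f1, Sox2 and Nanog, was 3865 to 4081 CPM in the double knockout, 4120 to 4235 CPM in the untreated line and 3604 to 3798 CPM in wild type. The 5 primitive endoderm markers summed to 40.1 to 43.1 CPM in the double knockout, 8.91 to 9.05 CPM in the untreated line and 18.5 to 21.8 CPM in wild type. The 8 fibroblast markers, which would report feeder cells, summed to 75.0 to 76.8 CPM in the double knockout, 24.1 to 25.0 CPM in the untreated line and 40.8 to 43.3 CPM in wild type. Of these, Lum had at most 2 counts in any of the 9 libraries and is uninformative. The 4 trophoblast markers summed to 34.7 to 45.1 CPM in the double knockout, 23.4 to 27.9 CPM in the untreated line and 54.2 to 56.2 CPM in wild type. Most of that sum was Krt7, at 25.4 to 34.0 CPM in the double knockout and 47.4 to 51.0 CPM in wild type. Cdx2 and Gata3 were higher in the double knockout than in wild type, and Elf5 was at most 1.1 CPM. The 4 neuronal markers summed to 251 to 265 CPM in the double knockout, 268 to 294 CPM in the untreated line and 224 to 243 CPM in wild type, with Dcx at 0 to 3 counts a library in the double knockout and 0 in the untreated line. Most of the neuronal sum was Stmn2, at 189 to 197 CPM in the double knockout. Mitochondrially encoded messages were also higher, 7 of 10 tested protein-coding genes rising by 0.44 to 0.79 on the log2 scale, with summed levels of 4610 to 5739 CPM in the double knockout, 3223 to 3675 CPM in the untreated line and 4121 to 5061 CPM in wild type. What part these shifts have in the gene lists below was not tested.

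Genes of the germ line were among the largest increases: Sycp1, Stra8, Dazl and Mael were among the 12 highest fold changes of genes at a moderate level (a log2 CPM of 2 or more on average). Of 24 listed genes of meiosis, the piRNA pathway and germ cell identity, 23 were tested, 17 rose and 3 fell, with a median log2 fold change of 1.05 against -0.0010 over all genes tested, and of the 22 that also passed the filter in the other 12 libraries 16 rose, with a median of 0.99. In embryonic stem cells such genes are silenced in part by a variant PRC1 complex, PRC1.6, whose MGA and MAX subunits bind the E-box CACGTG and whose E2F6 subunit binds the motif TCCCGC. The 250 bases before the RefSeq start (GRCm38.p6) are shown for 4 of the genes that rose, 3 with the E-box and 1 without, and capitals mark CACGTG and TCCCGC, searched on both strands. The windows, all on the minus strand and written in the direction of transcription, are chr3:102936101-102936350 for Sycp1, chr1:166238745-166238994 for Mael, chrX:134476491-134476740 for Taf7l and chr17:50293621-50293870 for Dazl.
Sycp1: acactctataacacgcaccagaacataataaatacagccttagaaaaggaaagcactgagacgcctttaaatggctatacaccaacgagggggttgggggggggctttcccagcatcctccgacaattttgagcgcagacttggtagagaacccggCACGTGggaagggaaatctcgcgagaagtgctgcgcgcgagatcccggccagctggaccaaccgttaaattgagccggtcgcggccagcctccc
Mael: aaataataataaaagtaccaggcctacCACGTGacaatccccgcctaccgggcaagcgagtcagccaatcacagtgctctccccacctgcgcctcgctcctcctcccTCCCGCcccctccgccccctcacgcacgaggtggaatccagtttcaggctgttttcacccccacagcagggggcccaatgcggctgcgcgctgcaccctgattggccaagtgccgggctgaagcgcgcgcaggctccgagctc
Taf7l: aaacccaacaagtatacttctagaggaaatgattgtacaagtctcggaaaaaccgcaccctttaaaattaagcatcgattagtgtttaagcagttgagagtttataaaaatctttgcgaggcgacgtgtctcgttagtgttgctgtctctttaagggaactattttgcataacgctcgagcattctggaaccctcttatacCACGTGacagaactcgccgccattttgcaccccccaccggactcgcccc
Dazl: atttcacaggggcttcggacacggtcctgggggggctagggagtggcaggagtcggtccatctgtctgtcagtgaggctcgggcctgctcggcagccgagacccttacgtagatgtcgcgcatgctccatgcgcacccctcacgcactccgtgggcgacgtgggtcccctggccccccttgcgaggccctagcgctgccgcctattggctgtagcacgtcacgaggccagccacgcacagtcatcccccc
CACGTG was present in 11 of the 22 germline windows available (50.0%), in 7 of the 16 of germline genes that rose, in 6.04% of all 27025 windows in the table, and in 8.47% of the 12307 windows of tested genes, which cover 72.9% of them. TCCCGC was present in 31.8% of germline windows, 29.5% of those of tested genes and 16.9% of all. Among germline genes that rose, the CACGTG share was 43.8% and the TCCCGC share 25.0%, both below those of all germline windows. The 4 windows shown are therefore not in proportion, and a link of either motif to the rises was not tested. These are matches of letters, not binding sites.

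Sycp1, which encodes the transverse filament of the synaptonemal complex, had 26.9, 21.3 and 18.9 CPM in the double knockout, 2.2, 2.8 and 1.69 CPM in the untreated line and 2.48, 1.94 and 2.43 CPM in wild type. The fitted level in the double knockout was 9.87-fold that of the untreated line (3.30 ± 0.16, edgeR adjusted p = 3.5e-20), and both baselines lay together. Stra8, the retinoic acid-induced gene of meiotic entry, had 61.3, 53.8 and 54.1 CPM in the double knockout, 7.34, 7.05 and 8.02 CPM in the untreated line and 4.51, 4.42 and 4.62 CPM in wild type. All 3 double knockout libraries stood clear of the other 6 (2.92 ± 0.093, edgeR adjusted p = 6.7e-27). Dazl, an RNA-binding protein of germ cells, had 73.6, 60.8 and 66 CPM in the double knockout, 9.71, 9.56 and 8.44 CPM in the untreated line and 7.75, 6.46 and 6.72 CPM in wild type (2.85 ± 0.090, edgeR adjusted p = 5.5e-27). Mael, a piRNA pathway protein, had 83.8, 74.4 and 74.8 CPM in the double knockout, 12.5, 12.6 and 13.7 CPM in the untreated line and 13.6, 14.1 and 14.8 CPM in wild type (2.59 ± 0.077, edgeR adjusted p = 5.8e-28). Neither gene showed any overlap between the double knockout and the baselines. Among the other members that rose were Taf7l, a germ cell TFIID subunit (2.34 ± 0.10), Tex101 (2.12 ± 0.23), Rhox5 (2.01 ± 0.058), the piRNA helicase gene Mov10l1 (1.45 ± 0.078) and Ddx4 (0.68 ± 0.055). The 3 that fell were Stag3 (-0.35 ± 0.053) and Smc1b (-0.56 ± 0.10), both meiotic cohesin subunits, and Zcwpw1 (-0.62 ± 0.081), none of which passes a test against a 1.5-fold change. Among genes outside the list, Sohlh2, a transcription factor of early germ cells, had 102, 99.5 and 96.6 CPM in the double knockout libraries, against 17.8, 18.6 and 19.2 CPM in the untreated-line libraries, with no overlap (2.42 ± 0.071, edgeR adjusted p = 4.0e-28). Of the subunits of PRC1.6 itself, E2f6 rose (0.44 ± 0.074, edgeR adjusted p = 6.8e-06), Pcgf6 fell (-0.32 ± 0.058, edgeR adjusted p = 2.3e-05), and Mga (-0.092 ± 0.056), Max (-0.083 ± 0.052) and L3mbtl2 (-0.10 ± 0.048) did not pass the test, although L3mbtl2 did without double knockout replicate 2 (edgeR adjusted p = 0.046).

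HOX genes, the textbook targets of Polycomb silencing that pattern the body axis, rose throughout. All 35 of the 39 cluster genes that were tested rose, by up to 5.33 on the log2 scale. However, 20 of these 35 did not pass the filter in the other 12 libraries. They entered the test through the libraries compared here, so the filter favoured genes high in the double knockout. The count to be read against the background of 19.3% is that of the 15 that did pass in the other 12 libraries. All of these rose, with a median of 2.01 (2.33 over the 35). Hoxb13 had 16.3, 16 and 15.2 CPM in the double knockout, 1.36, 2.01 and 1.74 CPM in the untreated line and 0.385, 0.451 and 0.191 CPM in wild type. It was highest in the double knockout and also higher in the untreated line than in wild type (2.29 ± 0.35, edgeR adjusted p = 8.8e-07), and its rise over the untreated line was 3.21 ± 0.18, edgeR adjusted p = 3.8e-18. Hoxd13 had 9.61, 6.79 and 7.6 CPM in the double knockout, 0.527, 0.747 and 0.369 CPM in the untreated line and 0.605, 0.361 and 0.953 CPM in wild type (3.83 ± 0.25, edgeR adjusted p = 4.7e-16). Hoxa9, which entered the test through the double knockout, had 4.77, 4.26 and 3.84 CPM in the double knockout libraries, against 0.0879, 0.0467 and 0.211 CPM in the untreated-line libraries. The baseline values there are a few counts a library, so its fitted log2 fold change of 5.17 ± 0.39 is imprecise. The calls for Hoxb3 (1.28 ± 0.39) and Hoxb5 (1.02 ± 0.35) were lost with DESeq2 and when either of 2 libraries was left out, that for Hoxb3 also after thinning to equal depth. Levels stayed low for most of the clusters. On the length-corrected RPKM scale of the deposited files, the double knockout averaged 11.6 RPKM for Hoxb13, 6.4 for Hoxc13, 3.11 for Hoxd13 and 3.02 for Hoxb9, all below the 22 RPKM of Rnf2, and 30 further cluster genes lay between 0.152 (Hoxc6) and 1.85 RPKM (Hoxd9).

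**Figure D2:**
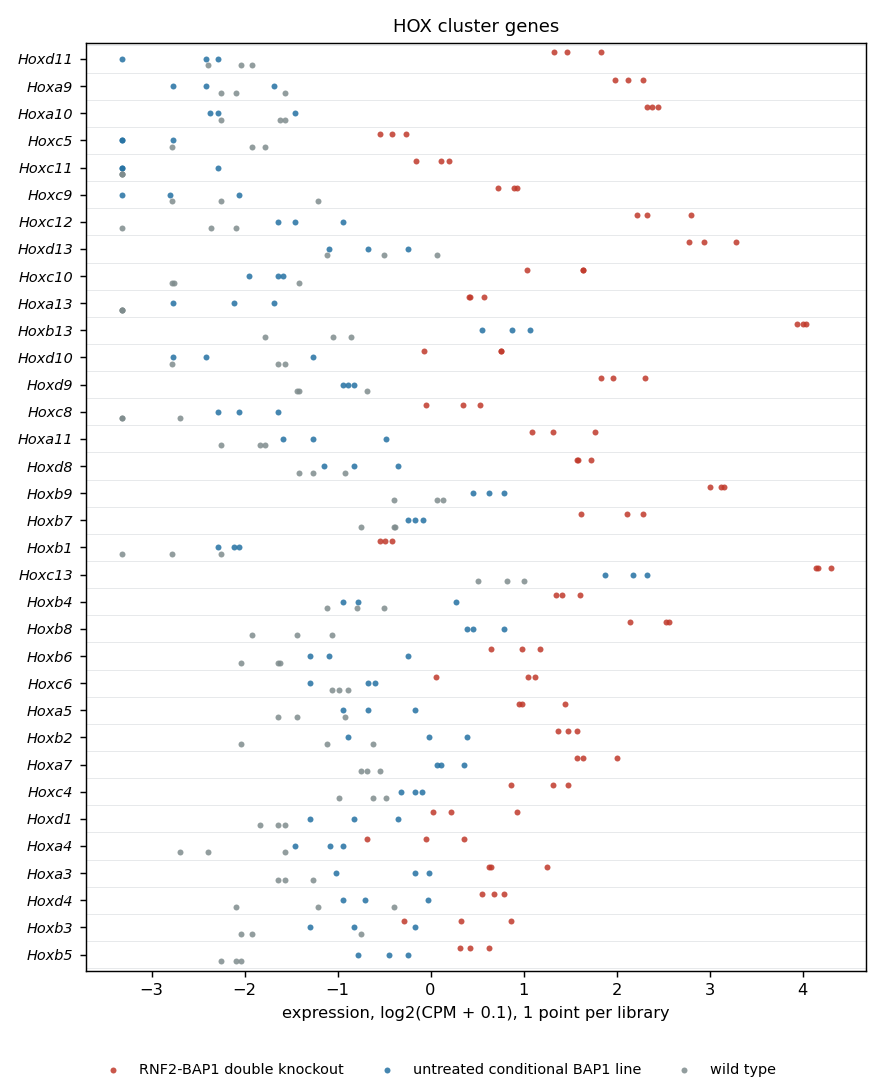
Expression of 34 of the 35 tested HOX cluster genes (rows) as log2(CPM + 0.1), 1 point per library, in the double knockout (red), the untreated conditional line (blue) and wild type (grey). All 3 red points lie to the right of all blue and grey points in 33 of the 34 rows, Hoxb3 being the exception, and for Hoxb13 they stand at 15.2 to 16.3 CPM.

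Other homeobox and forkhead regulators of development followed the same direction. Of 34 tested among 38 listed, 30 rose, 1 fell and 3 did not pass, with a median of 1.81. Of the 29 that also passed the filter in the other 12 libraries, 25 rose, with a median of 1.47. Pitx1, a regulator of hindlimb and pituitary development, had 2.62, 4.04 and 3.19 CPM in the double knockout, 0.308, 0.0933 and 0.158 CPM in the untreated line and 0.495, 0.361 and 0.286 CPM in wild type. It was clear of both baselines in every double knockout library (4.05 ± 0.37, edgeR adjusted p = 4.6e-12). Dlx5, a homeobox gene of the branchial arches and skeleton, had 10, 10 and 6 counts in the double knockout libraries and 0 in all 3 of the untreated line, at least 11.4-fold higher against a floor of 3 counts over the group. The exception was Lhx9, a LIM homeobox gene (0.785, 1.23 and 0.899 CPM in the double knockout libraries, against 2.64, 2.01 and 2.27 CPM in the untreated-line libraries), which fell (-1.27 ± 0.25, edgeR adjusted p = 6.3e-05). Neural and neural crest genes were mixed. Of 15 tested neuroectoderm genes 4 rose (26.7%, near the 19.3% of all genes) and 1 fell, and against wild type 12 rose and 2 fell, with a median of 0.87. The fall was at Stmn2 (-0.15 ± 0.046, edgeR adjusted p = 0.0094), whose call was lost with scaling by library totals and without untreated-line replicate 1. Zic1 had 7.06, 5.99 and 6.91 CPM in the double knockout, 0.747, 0.373 and 0.158 CPM in the untreated line and 0.22, 0.271 and 0.0953 CPM in wild type (3.90 ± 0.28, edgeR adjusted p = 3.0e-15), and Pax3 had 3.66, 4.55 and 3.56 CPM in the double knockout, 0.396, 0.28 and 0.211 CPM in the untreated line and 0.055, 0.135 and 0.0476 CPM in wild type (3.66 ± 0.37, edgeR adjusted p = 6.9e-11). Cdh2 (N-cadherin) rose as well (1.59 ± 0.10, edgeR adjusted p = 4.0e-16), and so did the proneural gene Neurog1 (1.04 ± 0.19, edgeR adjusted p = 2.6e-05).

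Subunits of the Polycomb complexes changed unevenly. Of 10 tested genes of the PRC1 core, 4 rose (40.0%) and 3 fell (30.0%), among these Rnf2. Over all genes 19.3% rose and 19.5% fell. Bmi1 (Pcgf4), a RING-finger partner of RING1 proteins, had 8.63, 8.16 and 8.99 CPM in the double knockout, 2.64, 2.99 and 3.59 CPM in the untreated line and 2.8, 2.57 and 2.19 CPM in wild type. The fitted level in the double knockout was 2.83-fold that of the untreated line (1.499 ± 0.16, edgeR adjusted p = 2.5e-10), and no library overlapped with either baseline. Pcgf5 (0.32 ± 0.080, edgeR adjusted p = 0.0015) and Yaf2 (0.36 ± 0.11, edgeR adjusted p = 0.0066) rose by less, and the calls for Pcgf3 (0.14 ± 0.051, edgeR adjusted p = 0.028) and Pcgf1 (-0.29 ± 0.12, edgeR adjusted p = 0.046) were each lost when single libraries were left out, that for Pcgf3 also without a filter, and that for Pcgf1 also with DESeq2, scaling by library totals and the other filters that dropped more genes. The CBX proteins are the chromodomain subunits by which canonical PRC1 reads the mark of PRC2. Cbx8 had 5.3, 5.2 and 5.64 CPM in the double knockout, 0.747, 0.56 and 0.897 CPM in the untreated line and 1.38, 2.26 and 1.19 CPM in wild type (2.88 ± 0.26, edgeR adjusted p = 5.7e-12). It was highest in the double knockout. Cbx2 had 69.1, 71 and 80.5 CPM in the double knockout, 36.2, 36.4 and 38.1 CPM in the untreated line and 79.6, 77.7 and 78.2 CPM in wild type. Its rise over the untreated line (1.001 ± 0.059, edgeR adjusted p = 8.8e-18) therefore reached the wild-type level and did not pass it (-0.088 ± 0.055, edgeR adjusted p = 0.18 against wild type). Cbx7, the main CBX gene of embryonic stem cells, fell slightly (-0.18 ± 0.043, edgeR adjusted p = 8.9e-04). The PRC1.1 partners Bcorl1 (1.34 ± 0.11, edgeR adjusted p = 4.5e-13) and Bcor (0.69 ± 0.050, edgeR adjusted p = 6.0e-15) rose. In PRC2, 6 of 13 genes rose (46.2%) and 3 fell (23.1%). Ezhip, an inhibitor of PRC2, had 23.2, 23.2 and 23.9 CPM in the double knockout, 7.47, 7.28 and 6.54 CPM in the untreated line and 4.56, 3.29 and 3.72 CPM in wild type (1.72 ± 0.11, edgeR adjusted p = 4.2e-16), whereas Phf19, a Polycomb-like accessory subunit, had 10, 10.3 and 9.68 CPM in the double knockout, 19.4, 19.2 and 20.9 CPM in the untreated line and 26.9, 29.7 and 31.8 CPM in wild type (-0.99 ± 0.089, edgeR adjusted p = 3.4e-12). The catalytic subunit gene Ezh2 did not pass the test (0.081 ± 0.048) unless libraries were scaled by totals (edgeR adjusted p = 0.028), and Suz12 rose by 0.20 ± 0.056, edgeR adjusted p = 0.0039. In the BAP1 complex 3 of 11 genes rose and 3 fell, Bap1 itself among the latter (27.3% each), none by 1.5-fold. The largest were Mbd5 (0.52 ± 0.11, edgeR adjusted p = 1.9e-04) and Foxk1 (-0.29 ± 0.063, edgeR adjusted p = 2.5e-04), whose products are partners of the complex. Asxl2 rose by 0.21 ± 0.053, edgeR adjusted p = 0.0017.

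Genes of the 2-cell-like state, the rare condition of embryonic stem cells that resembles the embryo after its first division, appeared at low levels. Of 15 tested, 14 rose, but only 2 of the 15 passed the filter in the other 12 libraries, so the filter largely fixes the count. Zfp352 had 5.17, 4.26 and 5.64 CPM in the double knockout, 0.0879, 0.14 and 0.0527 CPM in the untreated line and 0.055, 0.0903 and 0.238 CPM in wild type, and Tcstv1 had 3.79, 4.84 and 4.86 CPM in the double knockout, 0.044, 0.187 and 0 CPM in the untreated line and 0.055, 0.316 and 0.143 CPM in wild type. Both lay near 0 in the baselines and between 3.79 and 5.64 CPM in the double knockout. Zscan4b had 14, 19 and 23 counts in the double knockout libraries and 0 in those of the untreated line, at least 22.6-fold higher against the floor of 3 counts over the group. The Zscan4, Usp17l and Tcstv genes are multicopy families whose members share sequence, so the split of reads among them is uncertain. More widely, 15 genes had at most 2 counts in each untreated-line library and at least 1 CPM in each double knockout library, and no gene met the reverse rule. Among them were the transcribed pseudogene Gm4971 (45, 56 and 96 counts in the double knockout, 0, 2 and 0 in the untreated line), the PRAME family gene Pramel31 (61, 36 and 81 counts in the double knockout, 2, 1 and 1 in the untreated line) and Hoxd11 (37, 48 and 65 counts in the double knockout, 2, 0 and 2 in the untreated line).

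In the extraembryonic endoderm programme the outcome depended on the baseline. All 18 tested genes of primitive and visceral endoderm (of 22 listed) rose against the untreated line, with a median of 1.73. Against wild type 4 rose and 6 fell, with a median of 0.14, where 26.2% of all genes rose and 27.1% fell. The untreated line itself differed from wild type, with 16 of the 18 lower and a median of -1.41. Cubn (cubilin, the endocytic receptor of visceral endoderm) had 23.1, 24.7 and 26 CPM in the double knockout, 1.1, 1.12 and 1.58 CPM in the untreated line and 18.6, 16.1 and 16.8 CPM in wild type. The untreated line was the low group, and the double knockout stood above it by 4.29 ± 0.14, edgeR adjusted p = 5.4e-26, but above wild type by only 0.52 ± 0.097, edgeR adjusted p = 1.5e-05. Col4a1, a basement membrane collagen abundant in parietal endoderm, had 362, 395 and 374 CPM in the double knockout, 86.4, 85.7 and 92 CPM in the untreated line and 418, 434 and 429.9 CPM in wild type. Here the double knockout stood well above the untreated line (2.10 ± 0.046, edgeR adjusted p = 1.6e-32) and just below wild type (-0.18 ± 0.042, edgeR adjusted p = 3.8e-04). The partner chain gene Col4a2 (1.96 ± 0.053 against the untreated line, -0.13 ± 0.048 against wild type) and Sparc (0.92 ± 0.041 against the untreated line, -0.59 ± 0.040 against wild type) behaved alike, with wild type the highest group. Col4a1 and Col4a2 lie on chromosome 8, where the median over all 860 tested genes was -0.25 against wild type, and these 2 differences were no larger than that median. Gata6, which specifies primitive endoderm, had 7.91, 9.03 and 8.34 CPM in the double knockout, 0.923, 1.17 and 1.27 CPM in the untreated line and 2.75, 3.16 and 2.95 CPM in wild type. It was highest in the double knockout against either baseline (2.91 ± 0.19, edgeR adjusted p = 2.2e-16 over the untreated line, 1.503 ± 0.16, edgeR adjusted p = 1.4e-10 over wild type). Gata4 followed it (2.02 ± 0.11, edgeR adjusted p = 3.3e-19 over the untreated line, 1.33 ± 0.10, edgeR adjusted p = 8.5e-15 over wild type), while Sox17 was raised over the untreated line (2.52 ± 0.38, edgeR adjusted p = 6.6e-07) and did not pass the test against wild type (0.17 ± 0.28). Gata4, Gata6 and Sox17 are among the primitive endoderm markers summed above, so that sum is not an independent reading. The summed fibroblast markers given above were also highest in the double knockout and lowest in the untreated line.

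**Figure D3:**
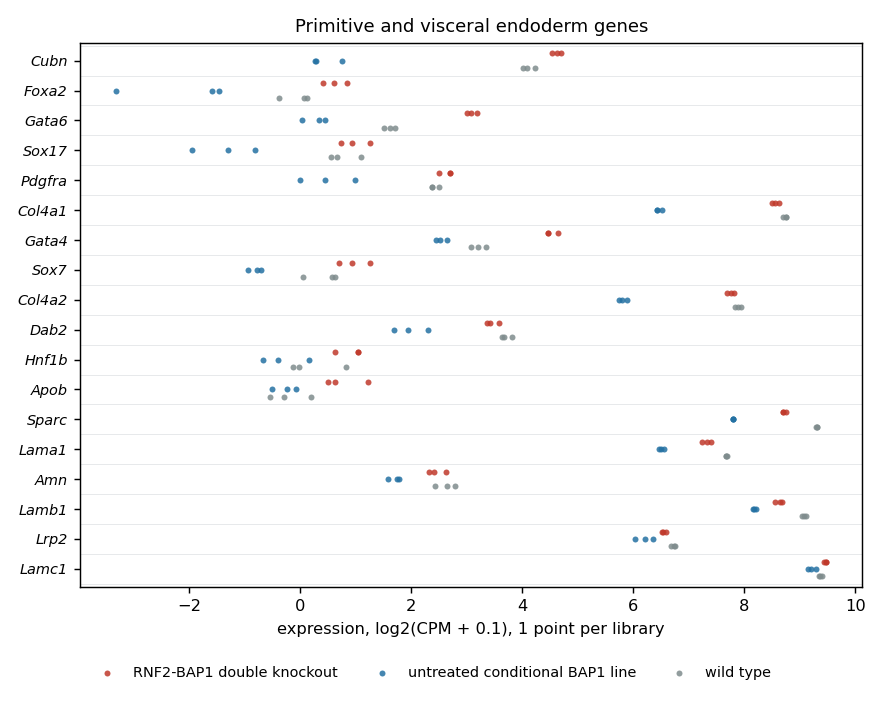
Expression of the 18 tested primitive and visceral endoderm genes (rows) as log2(CPM + 0.1), 1 point per library, in the double knockout (red), the untreated conditional line (blue) and wild type (grey). Blue points are lowest in most rows, and for Col4a1, Col4a2 and Sparc the grey points lie to the right of the red.

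Trophoblast genes showed the same dependence. Of 16 tested, 11 rose and 1 fell against the untreated line (median 0.36), and 4 rose and 10 fell against wild type (median -0.35), while 12 were lower in the untreated line than in wild type. The 1 fall, at Tfap2c (-0.12 ± 0.047, edgeR adjusted p = 0.038), was lost when any of 4 libraries was left out, and with scaling by library totals (edgeR adjusted p = 0.23), the size factors of the authors (0.051), the stricter filter (0.068) or the compared groups alone (0.0503). Among the regulators, Cdx2 (1.59 ± 0.34, edgeR adjusted p = 1.7e-04), Tfap2a (2.43 ± 0.32, edgeR adjusted p = 5.3e-08) and Gata3 (1.30 ± 0.16, edgeR adjusted p = 9.0e-09) rose over the untreated line, and over wild type too (1.08 ± 0.32 for Cdx2, 2.75 ± 0.34 for Tfap2a and 0.71 ± 0.15 for Gata3). Of 15 mesoderm and primitive streak genes 12 rose, with a median of 0.78, and of the 13 that also passed the filter in the other 12 libraries 10 rose. Foxf1, a factor of lateral plate mesoderm, had 2.94, 3.75 and 2.66 CPM in the double knockout, 0.308, 0.886 and 1 CPM in the untreated line and 0.715, 0.677 and 0.905 CPM in wild type (2.09 ± 0.31, edgeR adjusted p = 6.8e-07). Hand2, of the heart and limb, had 8, 9 and 10 counts in the double knockout and none in the untreated line, at least 11.1-fold higher against the same floor.

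Fibroblast and matrix genes were higher, while the wider contractile list was mixed. Of 20 tested fibroblast markers 18 rose, with a median of 1.15. The list shares members with the fibroblast markers summed above, so the sum is not an independent reading. Col1a2, a chain of type I collagen, had 27.6, 24.3 and 25.3 CPM in the double knockout, 5.85, 7.28 and 6.43 CPM in the untreated line and 9.62, 11.5 and 11.7 CPM in wild type. The double knockout was the highest group (1.98 ± 0.10, edgeR adjusted p = 1.1e-19), and the untreated line was below wild type (-0.75 ± 0.11, edgeR adjusted p = 4.9e-07). Col3a1 (2.47 ± 0.26, edgeR adjusted p = 2.9e-10), Col5a2 (1.98 ± 0.15, edgeR adjusted p = 1.2e-14) and Vim (1.07 ± 0.055, edgeR adjusted p = 1.4e-19) rose. Acta2, smooth muscle actin, had 47.4, 49.5 and 50.3 CPM in the double knockout, 4.7, 4.67 and 5.06 CPM in the untreated line and 6.76, 6.77 and 6.86 CPM in wild type. Both baselines were low and all 3 double knockout libraries high (3.35 ± 0.081, edgeR adjusted p = 6.5e-31). In the wider contractile list 9 of 22 genes rose and 4 fell, with a median of 0.18, and against wild type 6 rose and 10 fell, with a median of -0.073. Of 16 targets of YAP and TEAD, the effectors of the Hippo pathway, 11 rose and 1 fell. Lats2 (1.19 ± 0.12, edgeR adjusted p = 1.3e-10) and Ccn1 (0.77 ± 0.052, edgeR adjusted p = 6.7e-16) were among them, but against wild type 6 rose and 7 fell, and Ccn1 did not differ past the test there (0.02 ± 0.050).

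BMP signals act through SMAD1 and SMAD5 to induce ID genes, which inhibit differentiation factors in embryonic stem cells. Of 19 genes tested in the pathway 14 rose and none fell, with a median of 0.43. Among ligands, Bmp2 rose (1.99 ± 0.31, edgeR adjusted p = 1.1e-06). Among targets, Id3 had 26.6, 29.3 and 28.1 CPM in the double knockout, 12, 11.2 and 12.6 CPM in the untreated line and 23.9, 25.8 and 22.2 CPM in wild type. The untreated line was the low group, and the difference was 1.24 ± 0.082, edgeR adjusted p = 5.2e-16 over it and 0.22 ± 0.075, edgeR adjusted p = 0.012 over wild type. Id1 rose too (1.01 ± 0.073, edgeR adjusted p = 7.7e-15). Against wild type 6 of the 19 genes of the pathway rose and 4 fell, where 26.2% of all genes rose and 27.1% fell. Nodal and activin act through the other SMAD branch. Here 8 of 21 genes rose (38.1%) and 3 fell (14.3%), against 19.3% and 19.5% of all genes. Lefty1 and Lefty2, targets and inhibitors of Nodal, fell, whereas the ligand gene Tgfb2 and the activin antagonist gene Fst rose. Lefty2 had 21.5, 25.6 and 23.5 CPM in the double knockout, 70.7, 69.4 and 67 CPM in the untreated line and 41.9, 40.00 and 37.6 CPM in wild type (-1.55 ± 0.066, edgeR adjusted p = 1.7e-22), the double knockout lying below both baselines. Lefty1 changed by -1.06 ± 0.064, edgeR adjusted p = 2.0e-17, Tgfb2 by 1.78 ± 0.20, edgeR adjusted p = 2.1e-09 and Fst by 1.69 ± 0.16, edgeR adjusted p = 1.5e-11. In the WNT list, 15 of 28 rose (53.6%) and 6 fell (21.4%). Cdx1, a WNT target and caudal homeobox gene, rose over both baselines (1.31 ± 0.17, edgeR adjusted p = 5.4e-08 over the untreated line), and Wnt7a rose over the untreated line (1.38 ± 0.27, edgeR adjusted p = 4.8e-05) but fell against wild type (-0.66 ± 0.20, edgeR adjusted p = 0.006).

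Core pluripotency genes changed little in level against the untreated line. Of 19 core genes 5 rose (26.3%) and 6 fell (31.6%), against 19.3% and 19.5% of all genes. Without double knockout replicate 1 the count that rose was 3. Against wild type 11 of the 19 core genes rose and 5 fell, with a median of 0.26. In the untreated line 12 were higher than in wild type and 4 lower. Pou5f1 had 923, 1058 and 961 CPM in the double knockout libraries, against 1129, 1080 and 1073 CPM in the untreated-line libraries, a small fall (-0.16 ± 0.050, edgeR adjusted p = 0.01) that was lost without double knockout replicate 1 (edgeR adjusted p = 0.083), without untreated-line replicate 1 (0.057) or with scaling by library totals (0.074), and Sox2 did not pass the test (-0.021 ± 0.041). Nanog rose by 0.23 ± 0.040, edgeR adjusted p = 1.2e-05. Larger falls were at Lin28a, an inhibitor of let-7 maturation (200.5, 226 and 205 CPM in the double knockout, 322, 317 and 340.0 CPM in the untreated line and 465, 450.1 and 441 CPM in wild type), with -0.63 ± 0.044, edgeR adjusted p = 1.3e-15, and at Utf1, a chromatin protein of pluripotent cells (324, 366 and 342 CPM in the double knockout, 508, 501 and 505 CPM in the untreated line and 584, 663 and 602 CPM in wild type), with -0.55 ± 0.051, edgeR adjusted p = 6.2e-12. Both lay below both baselines. Of 20 naive pluripotency genes 9 rose and 3 fell. Tbx3, a T-box factor that sustains self-renewal, had 202, 201 and 211 CPM in the double knockout, 91.7, 91 and 94 CPM in the untreated line and 74.6, 80.3 and 77.5 CPM in wild type (1.15 ± 0.049, edgeR adjusted p = 1.7e-22). Fbxo15 (1.07 ± 0.062, edgeR adjusted p = 8.1e-18), Jam2 (0.86 ± 0.054, edgeR adjusted p = 9.9e-17) and Klf4 (0.52 ± 0.045, edgeR adjusted p = 1.1e-12) rose, Dppa3 fell (-0.85 ± 0.11, edgeR adjusted p = 2.3e-08), and Esrrb, a nuclear receptor of the network, did not pass the test (0.024 ± 0.037). Against wild type 16 of the 20 rose, with a median of 0.69, and 15 were also higher in the untreated line than in wild type. Among formative genes Sox3 rose (1.47 ± 0.12, edgeR adjusted p = 1.2e-13). Dnmt3l, the cofactor of de novo DNA methylation, had 291, 300.4 and 299.5 CPM in the double knockout, 191, 183 and 181 CPM in the untreated line and 303, 327 and 333 CPM in wild type, again with a low untreated line (0.68 ± 0.041, edgeR adjusted p = 2.4e-17 over it, -0.11 ± 0.041, edgeR adjusted p = 0.018 over wild type).

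Genes of sterol and fatty acid synthesis decreased almost uniformly. All but 1 of the 30 tested genes fell, none rose, and the median was -0.58, where 19.5% of all genes fell. Cholesterol is built by the mevalonate pathway, whose genes are activated by SREBP2, and SREBP1 drives those of fatty acid synthesis. Scd1, the stearoyl-CoA desaturase, had 69.7, 75.2 and 67.2 CPM in the double knockout, 198, 199 and 205 CPM in the untreated line and 298, 271 and 261 CPM in wild type. Its fitted level fell to 0.351 times that of the untreated line (-1.51 ± 0.052, edgeR adjusted p = 1.2e-25), and by more against wild type (-1.97 ± 0.052, edgeR adjusted p = 6.8e-30). Mvd, mevalonate diphosphate decarboxylase, had 83, 99.1 and 90.8 CPM in the double knockout, 204, 192 and 198 CPM in the untreated line and 253, 272 and 233 CPM in wild type (-1.12 ± 0.061, edgeR adjusted p = 6.1e-19). Lss, lanosterol synthase, had 80.4, 92.4 and 91.8 CPM in the double knockout, 168, 163 and 168 CPM in the untreated line and 189.5, 192 and 171 CPM in wild type (-0.91 ± 0.052, edgeR adjusted p = 2.7e-18). In all of these the double knockout lay below both baselines, as it did for 26 of the 30. Smaller falls were seen at Insig1, an SREBP target that restrains the pathway (-0.81 ± 0.046, edgeR adjusted p = 3.3e-18), at Fasn, the fatty acid synthase (-0.39 ± 0.047, edgeR adjusted p = 6.9e-09), and at the regulator gene Srebf2 (-0.28 ± 0.042, edgeR adjusted p = 8.3e-07). Idi1, at a mean of 1.9 ± 0.819 CPM in the double knockout and 2.75 ± 0.174 CPM in the untreated line (SD, n = 3 each), was the gene that did not pass (-0.59 ± 0.26), except when only the compared groups were fitted (edgeR adjusted p = 0.043), without a filter (0.028) or without double knockout replicate 1 (log2 fold change -0.978, edgeR adjusted p = 0.0065). Against a 1.5-fold change 7 of the 29 still passed. Against wild type 26 fell and 1 rose, with a median of -0.73.

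Glycolysis and hypoxia-response genes fell as well, 18 of 29 with 2 rising and a median of -0.33. Aldoa, the main aldolase, had 1601, 1863 and 1773 CPM in the double knockout, 2706, 2625 and 2593 CPM in the untreated line and 2451, 2735 and 2458 CPM in wild type. The double knockout was below both baselines, which lay together (-0.60 ± 0.048, edgeR adjusted p = 1.9e-13). Aldoc, a further aldolase, fell by more (-1.21 ± 0.069, edgeR adjusted p = 3.3e-18), and Eno2 (-0.58 ± 0.079, edgeR adjusted p = 8.3e-08) and Ldha (-0.38 ± 0.041, edgeR adjusted p = 5.4e-10) fell by less. Ldhb, the other lactate dehydrogenase chain and not a member of the list, had 65.5, 75.2 and 68.4 CPM in the double knockout libraries, against 161, 160.0 and 154 CPM in the untreated-line libraries (-1.19 ± 0.058, edgeR adjusted p = 2.4e-20). Against a 1.5-fold change 1 of the 18 listed genes that fell still passed. Genes such as Aldoa and Ldha have processed pseudogenes, so counts of uniquely aligned reads there are uncertain.

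**Figure D4:**
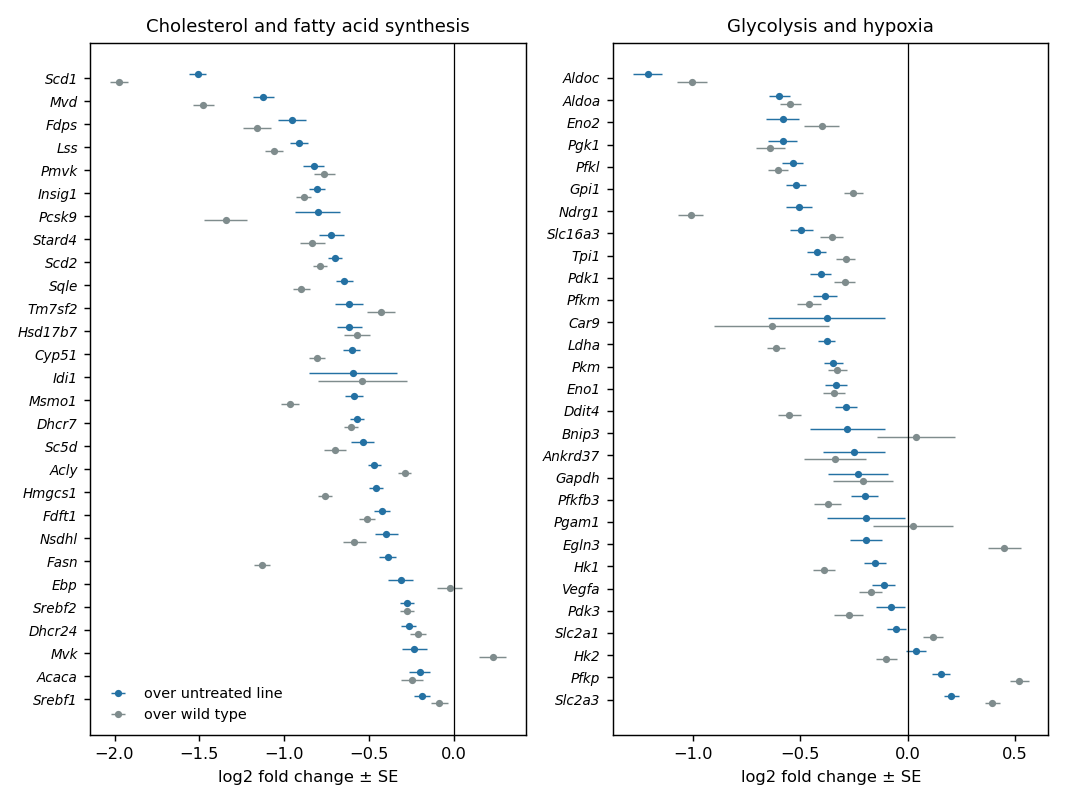
Log2 fold change ± SE (x axis) of 28 of the 30 tested genes (rows) of cholesterol and fatty acid synthesis (left panel) and of each tested gene of glycolysis and hypoxia (right panel), in the double knockout over the untreated conditional line (blue) and over wild type (grey). Every blue point in the left panel is below 0, with Scd1 at -1.51 the lowest.

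Falls among genes of growth and division were small, and none of the falls in replication, mitosis, ribosomal or respiratory chain genes passed a test against 1.5-fold. In DNA replication and S phase 18 of 26 fell and 1 rose, with a median of -0.15, and with scaling by library totals 11 fell. Cdc6, a licensing factor, had 41.1, 42 and 43 CPM in the double knockout libraries, against 60.2, 57.3 and 55.7 CPM in the untreated-line libraries (-0.46 ± 0.057, edgeR adjusted p = 1.3e-08), and Ccne1, cyclin E, had 193, 196 and 195 CPM in the double knockout libraries, against 254, 254 and 263 CPM in the untreated-line libraries (-0.40 ± 0.041, edgeR adjusted p = 1.1e-10). Neither pair of ranges overlapped. In mitosis 9 of 26 fell, led by the kinase gene Aurkb (-0.47 ± 0.052, edgeR adjusted p = 5.6e-10). Of 87 cytosolic ribosomal protein genes 33 fell and 3 rose, and the falls numbered 21 without untreated-line replicate 1 and 21 with scaling by library totals. The largest of the 3 rises were at paralogues expressed mainly in testis, Rpl10l, with 26, 29.3 and 25.9 CPM in the double knockout libraries, against 9.63, 8.12 and 8.39 CPM in the untreated-line libraries (1.63 ± 0.097, edgeR adjusted p = 1.6e-17), and Rpl39l (1.58 ± 0.13, edgeR adjusted p = 5.8e-13). Of 84 nuclear-encoded respiratory chain genes 15 fell and 6 rose, which is 17.9% and 7.14% of them, below the shares of all genes that fell (19.5%) and rose (19.3%), with 8 falls under scaling by library totals and 3 rises without untreated-line replicate 2, beside the rise of 7 mitochondrially encoded messages given above. Of the 28 genes of the ATF4 response, which is induced by amino acid shortage, 11 rose (39.3%) and 5 fell (17.9%). Chac1 (0.82 ± 0.11, edgeR adjusted p = 1.1e-07) and Atf3 (0.64 ± 0.095, edgeR adjusted p = 6.6e-07) were among the rises and Gpt2 (-0.49 ± 0.051, edgeR adjusted p = 1.7e-10) among the falls.

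Changes among the BCL2 family genes that passed the test were all under 2-fold. Of the 4 tested survival genes 50.0% differed and of the 11 pro-apoptotic genes 45.5%, against 38.8% of all genes tested. Bcl2, which blocks mitochondrial apoptosis, had 892, 984 and 876 CPM in the double knockout, 882, 847 and 855 CPM in the untreated line and 682, 772 and 935 CPM in wild type. The 3 ranges overlapped, and the difference from the untreated line did not pass the test (0.091 ± 0.19, edgeR adjusted p = 0.75), although it did when only the compared groups were fitted (edgeR adjusted p = 0.043). In the BAP1 knockout that kept RNF2 and received the drug, Bcl2 averaged 4.53 ± 1.37 CPM (SD, n = 3). Mcl1, a second survival gene, had 1643, 1631 and 1549 CPM in the double knockout, 1446, 1405 and 1455 CPM in the untreated line and 1241, 1245 and 1393 CPM in wild type. The double knockout was the highest by a small margin (0.16 ± 0.040, edgeR adjusted p = 9.9e-04), and the BAP1 knockout averaged 533 ± 18.6 CPM. Bcl2l1 (BCL-XL) rose (0.27 ± 0.054, edgeR adjusted p = 6.9e-05). Of 11 pro-apoptotic BCL2 family genes 2 rose (18.2%) and 3 fell (27.3%), against 19.3% and 19.5% of all genes. Hrk, a BH3-only gene of neurons, had 13.9, 12.3 and 11.2 CPM in the double knockout libraries, against 7.12, 6.21 and 6.07 CPM in the untreated-line libraries (0.93 ± 0.13, edgeR adjusted p = 1.2e-07), and Pmaip1 (NOXA) rose by 0.38 ± 0.050, edgeR adjusted p = 4.8e-08. The effector gene Bak1 (-0.21 ± 0.049, edgeR adjusted p = 7.3e-04), Bad (-0.38 ± 0.093, edgeR adjusted p = 0.0011) and Bok (-0.38 ± 0.092, edgeR adjusted p = 7.9e-04) fell. Of 33 p53 targets 13 rose (39.4%) and 5 fell (15.2%), none of them past a test against 1.5-fold. Plk2 (0.42 ± 0.045, edgeR adjusted p = 3.7e-10) and Ddb2 (-0.52 ± 0.073, edgeR adjusted p = 2.0e-07) changed in opposite directions.

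Imprinted genes, expressed from a single parental allele, included several of the large changes. Of 30 tested 16 rose and 4 fell, with a median of 0.39, and 12 rose and 11 fell against wild type. Igf2, a fetal growth factor, had 268, 303 and 285 CPM in the double knockout, 119.7, 114 and 120.4 CPM in the untreated line and 287, 289 and 278 CPM in wild type. The untreated line was the low group, and the double knockout matched the wild-type range (1.27 ± 0.045, edgeR adjusted p = 3.6e-25 over the untreated line, 0.0025 ± 0.043 over wild type). H19, its neighbour, had 71.9, 82.9 and 69.4 CPM in the double knockout, 44.4, 39.7 and 42.2 CPM in the untreated line and 280.2, 289 and 307 CPM in wild type. It was raised over the untreated line (0.82 ± 0.066, edgeR adjusted p = 1.3e-13) and below wild type (-1.97 ± 0.060, edgeR adjusted p = 7.1e-28). Dlk1, a Notch-related ligand, had 11.5, 11.3 and 13 CPM in the double knockout, 2.9, 2.38 and 2.74 CPM in the untreated line and 3.35, 4.7 and 3.24 CPM in wild type and was highest in the double knockout (2.17 ± 0.16, edgeR adjusted p = 5.0e-15). Nnat, a membrane proteolipid of neural tissue, had 47.5, 45.6 and 45.1 CPM in the double knockout, 24.4, 24 and 24.5 CPM in the untreated line and 1.21, 1.17 and 0.858 CPM in wild type, low in wild type and high in both other groups (0.92 ± 0.069, edgeR adjusted p = 2.0e-14 over the untreated line). Replication-dependent histone messages mostly lack poly(A) tails and are poorly captured here. Of 64 listed 17 were tested, and of the 11 that passed the filter in the other 12 libraries 7 rose. In antigen presentation, 7 of 15 genes fell and none rose. H2-K1, a class I heavy chain gene, had 38.2, 41 and 42.3 CPM in the double knockout libraries, against 71.6, 73.6 and 72.2 CPM in the untreated-line libraries (-0.83 ± 0.056, edgeR adjusted p = 7.0e-16). No listed gene fell by 2-fold or more, and the next 2 genes are outside the list. H2-K2 had 8.96, 11.9 and 9.72 CPM in the double knockout libraries, against 56.8, 53.7 and 54.4 CPM in the untreated-line libraries (-2.44 ± 0.090, edgeR adjusted p = 1.2e-24), but H2-K1 and H2-K2 are near-identical paralogues between which reads may be split. Ifi30, a lysosomal thiol reductase of antigen processing, had 139.7, 168 and 153 CPM in the double knockout, 417, 384 and 394 CPM in the untreated line and 478, 512 and 440.3 CPM in wild type (-1.38 ± 0.055, edgeR adjusted p = 2.4e-23), below both baselines.

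Among single genes at that moderate level the lowest fold changes were those of H2-K2, Enpp2 and Lefty2. Enpp2 (autotaxin, which makes lysophosphatidic acid) had 3.4, 4.69 and 3.06 CPM in the double knockout, 15.9, 14.2 and 13.8 CPM in the untreated line and 24.6, 24.3 and 23.1 CPM in wild type. It was lowest in the double knockout and highest in wild type (-2.02 ± 0.14, edgeR adjusted p = 2.0e-15 against the untreated line). Gstm3 (-1.53 ± 0.13), Entpd2 (-1.52 ± 0.14), Trim67 (-1.46 ± 0.13), Rsph1 (-1.45 ± 0.11), Actn3 (-1.42 ± 0.082), Ap3b2 (-1.41 ± 0.12) and Hif3a (-1.45 ± 0.099) fell by more than 2-fold, with no overlap of ranges and an edgeR adjusted p of 1.4e-11 (Entpd2) or less. Myb, a transcription factor of progenitor cells, had 8.24, 8.09 and 7.72 CPM in the double knockout libraries, against 21, 22.7 and 22 CPM in the untreated-line libraries (-1.45 ± 0.11, edgeR adjusted p = 2.4e-14). Bhlhe40, a circadian and hypoxia-responsive repressor, had 99.7, 109 and 102 CPM in the double knockout libraries, against 232, 242 and 223 CPM in the untreated-line libraries (-1.17 ± 0.050, edgeR adjusted p = 3.7e-22). Among the highest were 2210409E12Rik, with 80.9, 77.9 and 80.2 CPM in the double knockout libraries, against 11.1, 9.19 and 10.9 CPM in the untreated-line libraries (2.94 ± 0.073, edgeR adjusted p = 1.4e-30), Otud6a, an OTU-family deubiquitinase gene (2.46 ± 0.18, edgeR adjusted p = 1.1e-14), and Tmem132c (2.36 ± 0.15, edgeR adjusted p = 2.7e-16). All 3 were also above wild type in every library.

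The 2 baselines were not interchangeable. The untreated line differed from wild type in 6633 genes (39.3%), 3126 higher (18.5%) and 3507 lower (20.8%), against the 6550 (38.8%) that separated the double knockout from the untreated line. Against wild type the double knockout differed in 8990 genes (53.3%), 4422 higher (26.2%) and 4568 lower (27.1%), with 1079 (6.39%) and 474 (2.81%) at 2-fold or more. Against the mean of both baselines 8346 genes differed (49.5%), 4181 higher (24.8%) and 4165 lower (24.7%), with 927 (5.49%) and 232 (1.37%) at 2-fold or more. The double knockout libraries lay above all 3 of the untreated line for 4014 genes (23.8%) and below them for 4156 (24.6%), and above all 6 baseline libraries for 2681 genes (15.9%) and below them for 2751 (16.3%). These comparisons share the double knockout libraries, so the values stand side by side and are not independent. Among the lists with a median above 0 against both baselines were the developmental homeobox genes (1.49 over wild type), the germline genes (1.08) and the fibroblast markers (0.71). The naive pluripotency genes had a median of 0.69 over wild type but only 0.053 over the untreated line. That line itself stood above wild type for these genes, with a median of 0.52. The HOX, two-cell-like and replication-dependent histone genes were higher too, but 20 of 35, 13 of 15 and 6 of 17 did not pass the filter in the other 12 libraries. Lists whose median changed sign with the baseline included trophoblast and imprinted genes. For endoderm and trophoblast the test of the difference is that of the untreated line against wild type, in which 16 of 18 and 12 of 16 genes were lower.

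**Figure D5:**
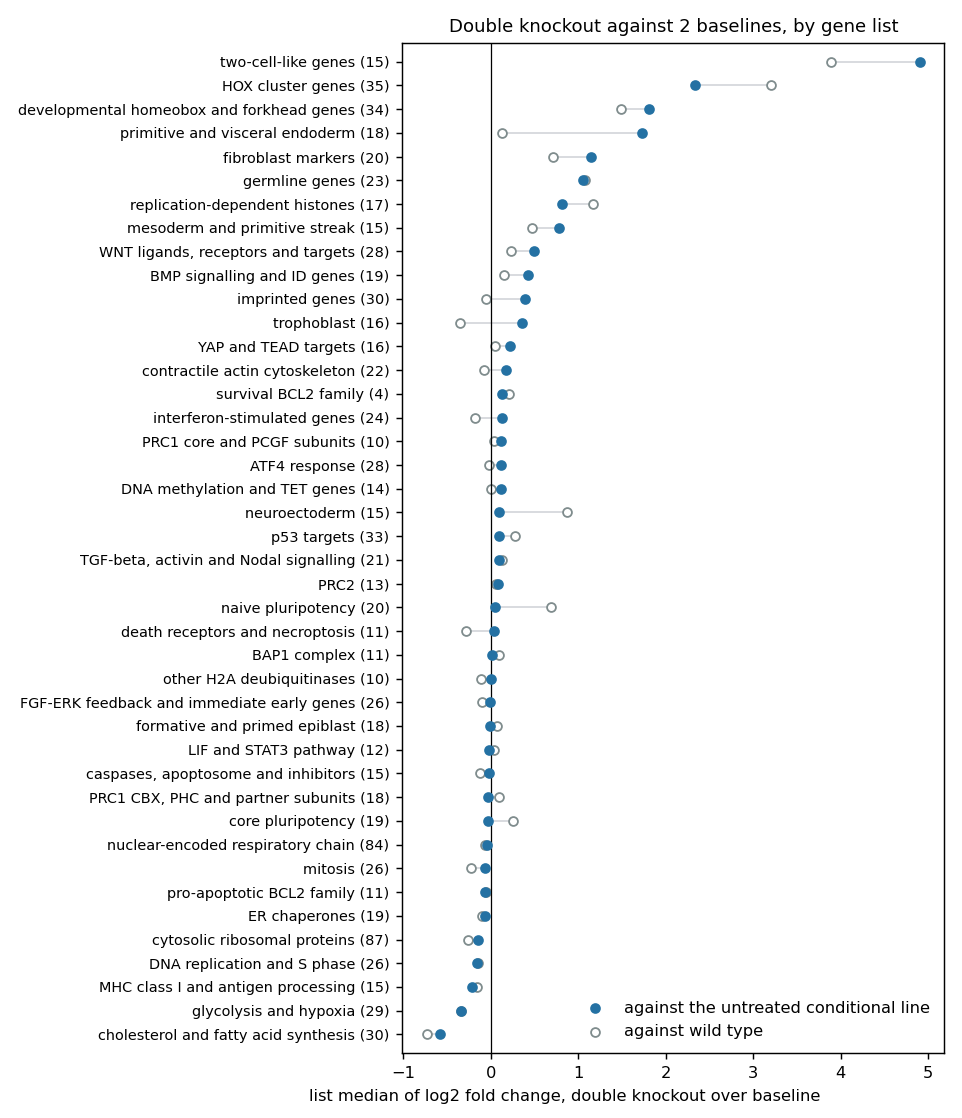
Median log2 fold change of the tested genes of each list (rows, number tested in parentheses) in the double knockout over the untreated conditional line (filled) and over wild type (open), with genes at 0 in a baseline set at their lower bound. HOX genes, of which 20 of 35 did not pass the filter in the other 12 libraries, stand at 2.33 over the untreated line. Primitive and visceral endoderm genes stand at 1.73 over the untreated line and 0.14 over wild type.

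Genes past the test lay on every chromosome, in unequal shares. Median log2 fold changes by chromosome lay between -0.045 (chromosome 17) and 0.058 (chromosome X) for the autosomes and X. Among these the share that rose ran from 11.9% (chromosome 17) to 26.8% (chromosome 18). The share that fell ran from 14.8% (chromosome 13) to 24.9% (chromosome 8). The 19 tested mitochondrial genes had a median of 0.60, with 57.9% rising. On chromosome 17, which carries the class I genes, 11.9% of 825 tested genes rose and 23.5% fell. Chromosome 8 had a median of -0.034 over the untreated line and -0.25 over wild type, and the untreated line had -0.22 against wild type.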

How the data were processed

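Polyadenylated RNA of 18 mouse embryonic stem cell libraries in 6 groups of 3 was analysed, with double knockout against untreated conditional line as the comparison described. Per the labels' protocols, RNA was isolated with RNeasy kits and DNase, and libraries were made with a TruSeq version 2 kit and read on a HiSeq4000 as single 50-base reads. The submitters' processing notes name GSNAP and GRCm38, without an aligner version. Per the file headers, the authors gave for each gene the count of reads aligning uniquely to its model and a size-factor-adjusted RPKM. The deposited counts were tested, and the deposited RPKM values served only for levels per length and for the authors' size factors as an alternative. No source used here says whether counting used strand, so antisense and overlapping genes may share reads.

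Gene symbols came from RefSeq tables of GRCm38.p6 for 31049 identifiers and from GENCODE M21 for 77, and 5402 of 36528 had no name. Genes were filtered with filterByExpr (16875 kept), scaled by TMM and tested with edgeR 4.0.16 (limma 3.58.1, R 4.3.3), 1 mean per group, all 18 libraries sharing the spread. The fit was tested on simulated data. Libraries of 1 group differed by more than sampling noise (1.77 to 5.78 chi-square units per degree of freedom), and none was counted as a repeat. Alternatives were DESeq2 1.42.0, other scalings and filters, the compared groups alone, a test against 1.5-fold, thinning to 13042515 counts and leaving out each library. The members and gene lists were chosen with earlier results of these data known. Named by rule were Bap1 and Rnf2, the 12 highest and 12 lowest changes with no overlap and an average log2 CPM of 2 or more, the 5 highest and 5 lowest at 100 CPM or more, all tested BAP1 complex, PRC1 core and BCL2 family genes, up to 4 of the most changed called genes of each other list, and the 3 largest differences near 0. Chosen after their values were seen, as known members of the lists, targets or exceptions, were Bcor, Cbx7, Ddx4, E2f6, Esrrb, Ezh2, Fasn, Gata4, H19, Hoxb3, Hoxb5, Hoxb9, Hoxc13, Hoxc6, Hoxd13, Hoxd9, Id1, Idi1, Insig1, Klf4, L3mbtl2, Ldha, Lhx9, Max, Mga, Mov10l1, Nanog, Nnat, Pou5f1, Rhox5, Smc1b, Sox2, Srebf2, Stag3, Stmn2, Suz12, Taf7l, Tex101, Tfap2c, Vim and Zcwpw1. Values of some list members, tested and counted with the rest, are not reported here.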

Additional observations from a re-analysis of the deposited data

How the results depend on the processing

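No paired analysis was possible because the labels carry no replicate numbers. Changes of scaling (size factors of DESeq2's kind, those of the authors), tool, filter, depth and library kept the counts over all genes within 1.5 times, apart from those given here. Counts of gene lists moved more often, mostly at 1.5-fold. The higher HOX cluster genes numbered 10 with the stricter filter and 15 with the filter computed on the other 4 groups, the higher homeobox and forkhead genes 12 with the stricter filter, the higher mesoderm genes 6 with the stricter filter and the higher two-cell-like genes 8 and 2 under these filters. Without double knockout replicate 3, 1 glycolysis and hypoxia gene and 1 antigen presentation gene were higher. Tested against a 1.5-fold change, 731 genes were higher and 184 lower, and 96 at least 2-fold lower. The same test gave 1007 and 610 against wild type, 262 and 323 for the untreated line against wild type, and 877 and 307 against both baselines. The stricter filter, which leaves fewer genes, gave 377 genes at least 2-fold higher and 89 at least 2-fold lower. Bap1 no longer passed with scaling by library totals (-0.095), at 1.5-fold (-0.14) or without double knockout replicate 1 (-0.086), with -0.18 to -0.086 over the libraries left out, and Rnf2 did not pass at 1.5-fold (-0.59). Ring1, which did not pass in any setting, ranged between -0.014 and 0.078 over the libraries left out, and Sox2, likewise, between -0.037 and 9.2e-05, with 0.029 under scaling by library totals. Of 153 named genes, 106 kept direction and call at 1.5-fold and 146 to 152 with a library left out. The filter computed on the 12 libraries of the other 4 groups was chosen after seeing the data. The causes of these shifts were not tested beyond the construction of each setting. Depth limits genes with a few counts per library, where a baseline of 0 sets only a lower bound.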

Other observations

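The BAP1 knockout libraries, which kept RNF2 and received the drug as the double knockout did, give a further view of the genes named. In them Sycp1 averaged 1.33 ± 0.474 CPM, Stra8 2.95 ± 0.303 CPM and Dazl 10.4 ± 1.49 CPM (SD, n = 3 each), all below the double knockout (4.17 ± 0.21, edgeR adjusted p = 1.8e-20 for Sycp1, 4.28 ± 0.12, edgeR adjusted p = 1.5e-28 for Stra8 and 2.65 ± 0.098, edgeR adjusted p = 4.6e-25 for Dazl, double knockout over BAP1 knockout). Cubn averaged 24.6 ± 1.46 CPM in the double knockout, against 1.17 ± 0.347 CPM in the BAP1 knockout (4.34 ± 0.17, edgeR adjusted p = 3.1e-24) and 1.27 ± 0.273 CPM in the untreated line. Acta2 averaged 49.1 ± 1.49 CPM in the double knockout, against 44.9 ± 0.74 CPM in the BAP1 knockout, and the difference did not pass the test (0.13 ± 0.064, edgeR adjusted p = 0.075). Bhlhe40 averaged 104 ± 4.97 CPM in the double knockout and 461 ± 9.12 CPM in the BAP1 knockout (-2.16 ± 0.051, edgeR adjusted p = 5.0e-31), with the untreated line at 232 ± 9.25 CPM between them. Scd1 averaged 70.7 ± 4.09 CPM in the double knockout and 158 ± 1.1 CPM in the BAP1 knockout (-1.16 ± 0.054, edgeR adjusted p = 9.7e-22).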
